A study of Drosophila melanogaster with 3 samples.

Results

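The 85 genes described here encode translation factors and aminoacyl-tRNA synthetases of Drosophila melanogaster. They were taken by name from the 13968 protein-coding genes annotated on the major chromosome arms. A name starting with eIF or eEF, or made of 1 or 2 amino acid codes followed by RS, with or without the ending -m, qualified a gene. They comprise 44 initiation factors, 8 elongation factors, 18 synthetases without the ending -m, which are cytosolic or shared between compartments and called cytosolic below, and 15 synthetases with it, called mitochondrial. The study mapped tango (tgo), a basic helix-loop-helix PAS protein, by chromatin immunoprecipitation and sequencing in whole embryos 0 to 24 h old. The embryos carry a tgo-eGFP fusion, and an antibody to GFP pulled down sonicated chromatin of 200 to 800 bp. There are 3 biological replicates of this 1 group, and neither an untagged strain nor the matched control library was used here. Signal at a gene is a mixture over all cells and stages of those embryos, so a weak region in all cells and a strong one in few cells cannot be told apart.

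Translation initiation factors bring the initiator tRNA, the small ribosomal subunit and the mRNA together, and elongation factors then deliver charged tRNAs and move the ribosome along the message. Aminoacyl-tRNA synthetases charge each tRNA with its amino acid, and the mitochondrial ones serve the separate translation system of that organelle. Tgo is the fly counterpart of mammalian ARNT and binds DNA as a dimer with tissue-restricted or signal-dependent partners such as sim, trh, ss and sima, at sites with the core ACGTG or GCGTG.

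The authors deposited for each replicate a thresholded peak list of 3617, 4759 and 3027 peaks for replicates 1, 2 and 3, and a longer ranked list of 35134, 75958 and 33491 peaks. Summits lying no more than 150 bp apart were joined, and a region found in at least 2 thresholded lists is called a core region. The 3 lists gave 3463 core regions, of which 30 lay in the territory of a member, meaning its gene body and the 2 kb upstream. Signal is given as a percentile within a replicate's own list, since the deposited signal has no stated unit. No test was made for the set of members, and shares of genes are set beside the share over all 13968 genes.

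A core region lay in the territory of 25 of the 85 members (29.4%, exact 95% binomial interval 20.02 to 40.3), against 23.1% of all genes, a share inside that interval. At an own start site, between -300 and 100 bp of it, 17 of the 85 had one (20%, interval 12.1 to 30.1), against 12.2% of all genes, a share just inside the lower end of the interval. A region found in all 3 lists lay in the territory of 19 members (22.4%), against 17.5% of all genes. In the single lists 27, 28 and 21 members had a summit in their territory in replicates 1, 2 and 3, which is 31.8%, 32.9% and 24.7%, where all genes gave 24.2%, 27.2% and 20.3%. The members were above all genes in each of the 3 lists, with a mean of 29.8% ± 4.45 against 23.9% ± 3.50 (SD, n = 3). The exact intervals of the lists were 22.08 to 42.76, 23.13 to 43.98 and 15.99 to 35.25. Each holds the share of all genes in that list. All 3 lists score the same 85 genes, so they do not repeat the comparison on other genes. At own start sites the single lists gave 22.35%, 23.53% and 18.82% of members, against 13.07%, 14.38% and 10.75% of all genes. The means there were 21.6% ± 2.45 for members and 12.7% ± 1.84 for all genes. Both shares were highest in replicate 2 and lowest in replicate 3. These SDs give the spread between lists and do not cover the counting error of 85 genes. With the gene body alone the difference was gone, and 8 members (9.41%) held a core region against 9.63% of all genes. Genes of like territory length were compared too. Among the 43 members between the quartiles of members' territory length (3700 to 5860 bp), 14 had a core region (32.6%) and 8 had it at an own start (18.6%). The 4109 genes in that range gave 20.7% and 14%. No interval was computed for these 43 members, a smaller count than 85, so the wider gap in the territory is not read as a stronger difference.

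**Figure D1:**
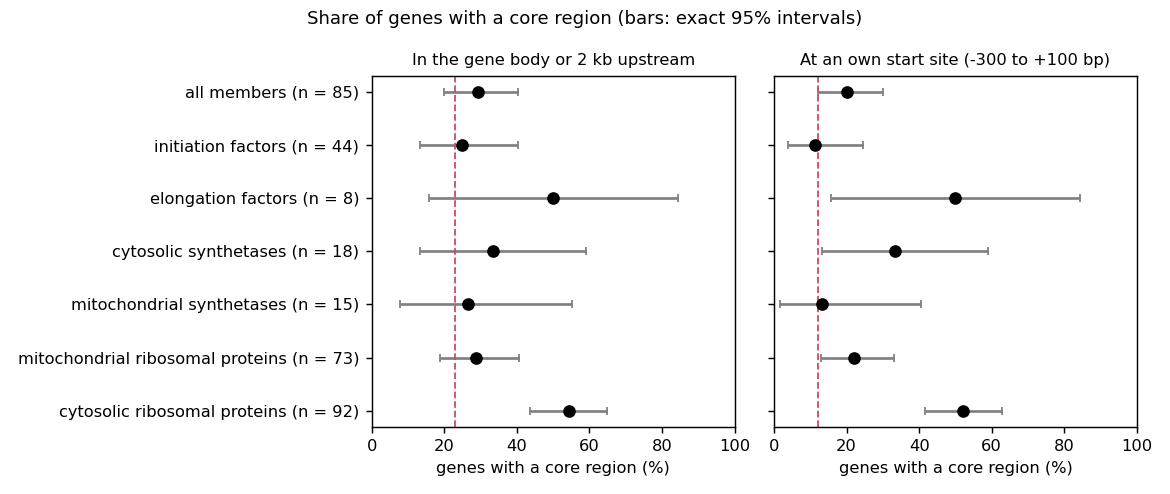
Percent of genes whose territory (left) or own start site (right) held a core region, for the members, their 4 roles and both ribosomal protein gene groups, with exact 95% binomial intervals. The dashed lines mark all protein-coding genes at 23.1% and 12.2%. The elongation factors stand at 50% in both panels with the widest interval, and the cytosolic ribosomal protein genes at 54.3% and 52.2%.

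Core regions were counted by role, where all genes gave 23.1% in the territory and 12.2% at an own start. Of the 44 initiation factors 11 had a core region (25%) but 5 had it at an own start (11.4%). Of the 8 elongation factors 4 had one, all 4 at an own start (50%, interval 15.7 to 84.3). Of the 18 cytosolic synthetases 6 had one, again all at an own start (33.3%, interval 13.3 to 59.0). Of the 15 mitochondrial synthetases 4 had one (26.7%), 2 of them at an own start (13.3%). The intervals of the 4 roles overlap, and no test compared the roles. For comparison, 50 of 92 genes named RpL or RpS, which encode cytosolic ribosomal proteins, held a core region (54.3%, interval 43.6 to 64.8). Of the 73 genes named mRpL or mRpS, for the mitochondrial ribosome, 21 did (28.8%). At an own start these groups had one in 48 (52.2%) and 16 (21.9%, interval 13.1 to 33.1), where the members had 20%.

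The DNA under 6 of the strongest member regions is shown first. These are the 100 bp windows around the summit among the 12 strongest members with a region in all 3 lists, where the window overlaps no UTR and lies on 2L, 3L, 3R or X. Each is written on the strand of the member, 5′ to 3′, with runs of at least 8 consecutive A or T bases in capitals, in BDGP release 6 (dm6) coordinates.
GluProRS, chr3R:23958477-23958576, minus strand: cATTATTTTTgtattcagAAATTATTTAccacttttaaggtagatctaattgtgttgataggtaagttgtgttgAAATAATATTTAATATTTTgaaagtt
LeuRS-m, chr3L:4824932-4825031, plus strand: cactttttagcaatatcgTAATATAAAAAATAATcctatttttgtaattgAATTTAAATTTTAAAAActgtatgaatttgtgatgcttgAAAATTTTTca
eIF3d1, chr3R:23678706-23678805, plus strand: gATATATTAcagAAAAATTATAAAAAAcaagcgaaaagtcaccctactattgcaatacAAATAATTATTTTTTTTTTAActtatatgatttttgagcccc
IleRS, chr3L:22288430-22288529, plus strand: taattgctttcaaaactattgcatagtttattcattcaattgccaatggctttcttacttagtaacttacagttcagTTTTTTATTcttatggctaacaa
ThrRS, chr2L:12103464-12103563, plus strand: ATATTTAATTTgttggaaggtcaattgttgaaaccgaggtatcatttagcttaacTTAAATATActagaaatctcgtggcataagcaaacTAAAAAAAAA
ProRS-m, chr3L:2651924-2652023, minus strand: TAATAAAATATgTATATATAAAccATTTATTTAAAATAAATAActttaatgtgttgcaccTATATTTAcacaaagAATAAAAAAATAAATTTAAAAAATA
The windows hold 22%, 19%, 24%, 28%, 28% and 13% G and C in that order. The longest run is 25 bases in the ProRS-m window and the shortest of the longest runs is 9 bases, in the IleRS window.

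These 6 windows are poorer in G and C than the mean of the 30 member regions, which was 32.7%, with single windows up to 52% at eIF2Bgamma. The 100 bp at member summits had a mean GC content of 32.0%, 34.2% and 31.5% in the lists of replicates 1, 2 and 3 (32.6% ± 1.40, SD, n = 3). Windows 500 bp to either side had 47.3%, 46.2% and 47.8% (47.1% ± 0.811), so the summit mean was below the flank mean in each list. The dip is not particular to members, since the 1660 core regions in promoters, the sequence between -1000 and 200 bp of any start site, had 31.1% at the summit and 45.6% in the flanks.

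**Figure D2:**
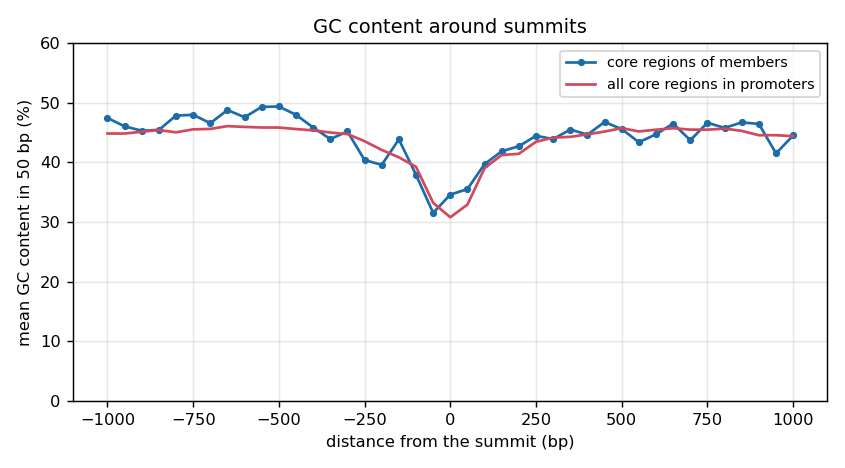
Mean GC content in 50 bp windows (percent, vertical axis) against distance from the summit (bp, horizontal axis) for the 30 core regions of members (points) and the 1660 core regions in promoters (line without points). Both fall to a minimum within 50 bp of the summit, at 31.5% and 30.8%.

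Short motifs were counted on either strand in the 100 bp summit windows of the 30 member regions. Of the tgo dimer cores, ACGTG was in 1 window (3.33%), that of eEF5, and GCGTG in 1 (3.33%), at the eIF5B start. These counts depend on the window, since 200 bp windows at the same summits held ACGTG in 10% and GCGTG in 23.3%. In the single lists the mean was 2.72% ± 2.58 for ACGTG and 7.57% ± 4.49 for GCGTG (SD, n = 3). The 60 flanking windows held ACGTG in 10 (16.7%) and GCGTG in 11 (18.3%), and 5.90% of all promoter core regions held each. The E-box CANNTG was in 8 windows (26.7%) against 29 of 60 flanks (48.3%) and 31.4% of promoter core regions. TATCGA, part of the element bound by the replication-related factor DREF, was in 5 windows (16.7%, exact interval 5.64 to 34.7). It was in none of 60 flanks and in 6.51% of promoter core regions, a share inside that interval. The interval is for all 30 member regions, however, of which 23 lay in promoters. Among these 23, TATCGA was in 5, and no interval was computed for that count. Those windows belong to eEF1gamma, eIF1, eEF5, eIF2Bgamma and eEF2. The palindrome TATCGATA, which contains TATCGA, was in the windows of eEF1gamma and eIF1. GATAA was in 7 windows (23.3%) and in 24.3% of promoter core regions, CACTG in 7 (23.3%) and 16.6%, GGTCACAC in 1 (3.33%) and 0.723%, and TATAA in 15 (50%) and 44.1%. In the 23 member regions in promoters alone, CANNTG was in 7, GATAA in 5, CACTG in 5, GGTCACAC in 1 and TATAA in 10. Motif letters say nothing of which factor bound.

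The 30 bp around TATCGA are shown for 2 members, on the plus strand of both genes with the motif in capitals. They were chosen after the counts were seen, as those on 2L, 3L, 3R or X that overlap no UTR.
eEF1gamma, chr3R:29220119-29220148, plus strand: tggcctaggaaaTATCGAtatatcgccgta
eIF1, chr3L:3223033-3223062, plus strand: tggcagggcaacTATCGAtaagcatttcgt
In both, the motif and its reverse complement overlap. In eEF1gamma it lay at -38 bp from the own start and in eIF1 at -293 bp.

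Among the initiation factors, the strongest region was that in the territory of eIF2Bbeta, a subunit of the eIF2B complex that recharges eIF2 with GTP. Its percentiles were 99.97, 100 and 100 in replicates 1, 2 and 3, so it was the top peak of replicates 2 and 3. Its summit at chrX:2703877 lay 25 bp upstream of the start of the divergent neighbour Ugalt, a nucleotide sugar transporter gene, and at -694 bp from the start of eIF2Bbeta. The own start of eIF2Bbeta had no core region. Of the 5 eIF2B genes 3 had a core region in the territory (interval 14.7 to 94.7%) and none at an own start (0 to 52.2%). Both intervals hold the shares of all genes, 23.1% and 12.2%. eIF2Bgamma (11.31 and 43.01 in replicates 1 and 2) was nearest to CG8187 at -17 bp, and eIF2Bdelta (7.11 and 33.7) nearest to CG30414 at -347 bp, both in 2 lists only. eIF2Balpha and eIF2Bepsilon were in no list, as were eIF2alpha, eIF2beta and eIF2gamma, the 3 subunits of eIF2 itself, which carries the initiator tRNA.

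eIF6, which keeps the large ribosomal subunit from joining too early, had the strongest region at an own start. Its percentiles were 99.59, 99.73 and 98.91, at -113 bp, and no other start lay nearer. The region is at 2R with its summit at position 23850414, and the eIF6 gene runs from 23849246 to 23850301 on the minus strand. eIF5B, a GTPase that joins the ribosomal subunits, had 5 core regions in its gene of 32320 bp. The strongest, at -125 bp, stood at 75.26, 76.53 and 72.41, and the other 4 were intronic, between 5438 and 27799 bp downstream of the start. eIF1, which acts in start codon choice, had a region at -290 bp (69.31, 65.62 and 54.77) that lay at -91 bp from the start of the divergent ribosomal protein gene RpL28. eIF2D, a factor able to place tRNA on the ribosome without eIF2, had a region at -103 bp in 2 lists, with percentiles of 51.99 and 17.31 in replicates 2 and 3.

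eIF3, the large scaffold complex on the small subunit, had a core region in 3 of its 16 genes (18.8%, interval 4.05 to 45.6), against 23.1% of all genes. For eIF3c it lay at -35 bp (86.73, 66.86 and 79.81). For eIF3d1 it lay at -1283 bp (81.86, 88.74 and 89.10), nearest to the start of GILT2 at -139 bp. For eIF3h it lay 279 bp downstream of an own start (69.01, 79.70 and 52.43). The paralogue eIF3d2 of eIF3d1 was in no list. eIF3a was in the list of replicate 2 and eIF3m in that of replicate 1. eIF3b, eIF3e, eIF3f1, eIF3f2, eIF3g1, eIF3g2, eIF3i, eIF3j, eIF3k and eIF3l were in none.

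Of the 13 genes named eIF4, 1 held a core region (7.69%, interval 0.195 to 36.0), and the 23.1% of all genes lies inside that interval. That gene is eIF4EHP, a cap-binding protein that represses bound messages. Its region (61.68, 79.72 and 58.97) lies in an intron at 9792 bp from the start, and the start of Syx1A is nearer, at 6595 bp. The ranked lists differ from this picture at the eIF4EHP promoter. A candidate there, with its summit at -249, -235 and -237 bp in replicates 1, 2 and 3, had the top score of 1000 and ranked percentiles of 99.91, 99.96 and 99.92, yet no thresholded list holds it. The same was true of 77, 104 and 66 ranked candidates at or above the score of 830 where the thresholded lists begin, of 3682, 4863 and 3092, and eIF4EHP was the 1 member they touched. No source used here says why they are missing, so eIF4EHP was not counted as having a region at its own start. eIF4E1, eIF4E3, eIF4E4, eIF4E5, eIF4E6, eIF4E7, eIF4A, eIF4B, eIF4G1, eIF4G2, eIF4H1 and eIF4H2 were in no list. Neither were eIF2A and eIF5, and eIF1A was in that of replicate 2.

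The elongation factors with a region were eEF1gamma, eEF1alpha1, eEF2 and eEF5. eEF1gamma, a subunit of the exchange factor for eEF1alpha, stood at 87.75, 88.91 and 88.11, close together in all 3 lists, at -45 bp. eEF1alpha1, the GTPase that delivers charged tRNAs, had 2 core regions. The stronger (65.16, 62.24 and 55.34) lay at -1440 bp, inside an intron near ERp60, and the other at -100 bp had a mean percentile of 53.7 ± 22.7. eEF2, which moves the ribosome by a codon, was at -2 bp with low percentiles of 21.73, 46.67 and 32.08. eEF5, formerly eIF5A, which relieves stalled ribosomes, was at -25 bp in 2 lists (51.12 and 60.33 in replicates 1 and 2). The paralogue eEF1alpha2, the exchange subunits eEF1beta and eEF1delta, and the selenocysteine factor eEFSec were in no list.

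Among cytosolic synthetases GluProRS, which charges tRNAs with both glutamate and proline, was highest at 96.46, 95.84 and 94.55. Its summit lay at -136 bp and the divergent start of AP-1sigma was nearer, at -124 bp. SerRS stood at 93.75, 89.01 and 89.16 with its summit on an own start (0 bp). IleRS stood at 82.83, 88.84 and 73.77, at -185 bp, and its divergent neighbour is Hem. ThrRS stood at 83.74, 84.30 and 77.21, at -237 bp, with the start of Patsas at -229 bp. ArgRS was in 2 lists (65.05 and 67.91 in replicates 1 and 2), at -211 bp and nearer to CG8578 at -120 bp. AsnRS was in all 3 (28.89, 49.59 and 14.77), at -85 bp. ValRS was in the list of replicate 2, MetRS in that of replicate 3, and AspRS and AlaRS in that of replicate 1. TrpRS, GlnRS, TyrRS, GlyRS, CysRS, LysRS, HisRS and LeuRS were in no list.

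Among mitochondrial synthetases LeuRS-m was highest at 94.14, 96.01 and 91.51. The summit lay at -871 bp from its start and 705 bp into the divergent gene Dhc64C, which encodes the dynein heavy chain. ProRS-m stood at 80.29, 78.84 and 75.12, at -124 bp, with CG42304 at -114 bp. CysRS-m stood at 28.56, 30.30 and 26.40, at -119 bp and nearer to O-fut1 at -49 bp. SerRS-m was in 2 lists (18.22 and 33.68 in replicates 1 and 2), in an annotated UTR 2021 bp downstream of its start. That summit was nearer to the start of Nagk, at 422 bp. ArgRS-m, MetRS-m, AlaRS-m, IleRS-m, TrpRS-m, GluRS-m, ValRS-m, TyrRS-m, PheRS-m, AsnRS-m and AspRS-m were in no list. In all, 53 members were in 0 lists, 7 in 1, 6 in 2 and 19 in 3, where the 13968 genes gave 9711, 993, 770 and 2494.

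**Figure D3:**
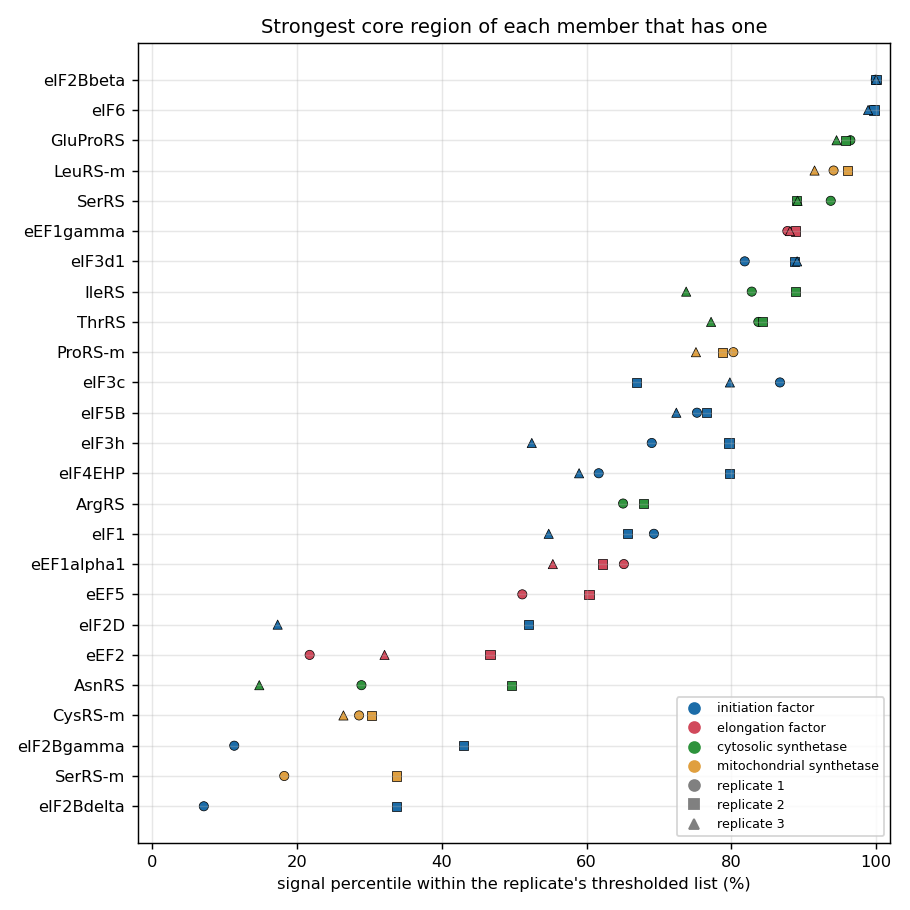
Signal percentile of the strongest core region (horizontal axis, percent of the replicate's thresholded list) for each of the 25 members with a core region, coloured by role, with 1 symbol per replicate. eIF2Bbeta and eIF6 are at the top in every replicate, and the spread between replicates varied from row to row, wide for eIF2D and AsnRS and narrow for CysRS-m and eEF1gamma.

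Over the 25 members the median percentile of the strongest region was 67.0, against 61.1 for the 3224 genes with a core region. The median distance from the nearest own start was -124 bp, against -147 bp. Of the 25 strongest regions 22 were in promoters, 2 in introns and 1 in a UTR. The members' own start was the nearest start in 11 of the 25, and a start of another gene in 14. Like counts of place and nearest start are not given for all genes, so neither is read as a trait of the members. A divergent neighbour within 1 kb was annotated for 49 of the 85 members (57.6%), against 36.2% of all genes. Among members with a region at an own start 13 of 17 had one (76.5%), and among the others 36 of 68 (52.9%). Over all genes these shares were 68.8% and 31.6%. For a region between divergent starts, which of the genes it belongs to was not tested.

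**Figure D4:**
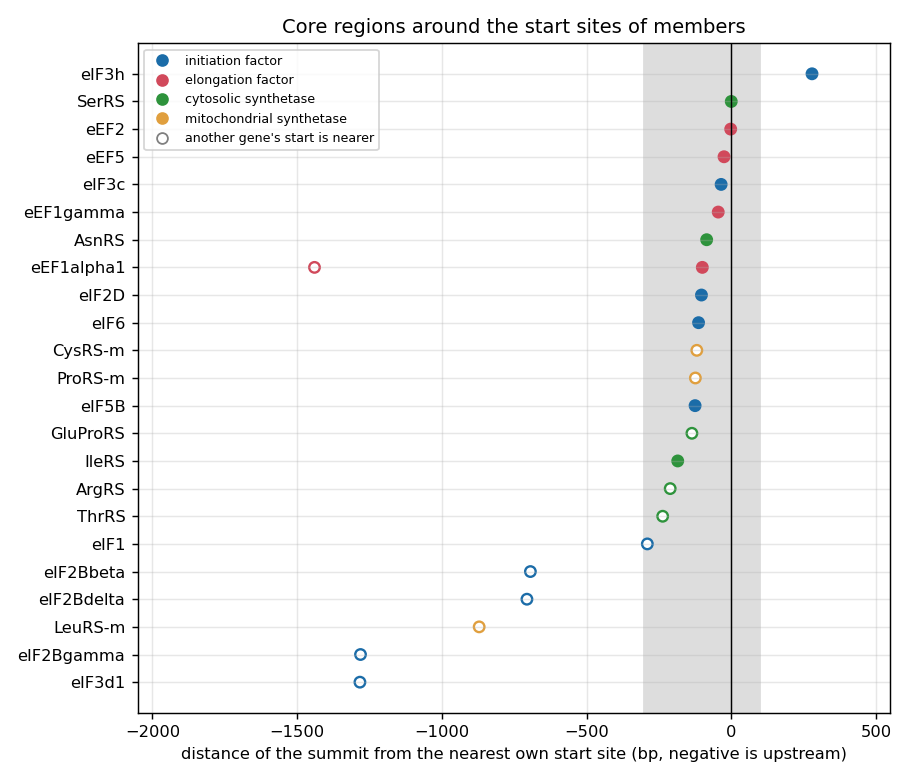
Distance of core region summits from the member's nearest own start site (bp, negative is upstream), coloured by role, for regions from 2000 bp upstream to 500 bp downstream. Open circles mark regions nearer to another gene's start, and the grey band runs from -300 to 100 bp. The open circles below -600 bp include 3 eIF2B genes, and regions further downstream, in eIF5B, eIF4EHP and SerRS-m, are off the axis.

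The 7 members in a single list had their summit between -258 and -31 bp from an own start. Their percentiles were 11.6 for eIF1A, 26.6 for eIF3a, 26.04 for eIF3m, 11.7 for ValRS, 9.25 for MetRS, 37.5 for AspRS and 1.22 for AlaRS. All 7 were below the members' median of 67.0. That median covers regions required in at least 2 lists, so the sets were chosen differently. No percentile of single-list summits over all genes is given, so the low ranks are not read as a trait of these members.

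The ranked lists hold candidates at many of the remaining starts, among them the top-scored one of eIF4EHP described above. Of the 68 members without a core region at an own start, 44 had a candidate there in at least 1 ranked list (64.7%), against 48.4% of the 12269 genes without one. In all 3 ranked lists 17 of the 68 had a candidate (25%), against 10.3%. The ranked list of replicate 2 is over 2 times as long as either of the others, and 15 of the 17 were members with no core region in the territory. These were eIF2Balpha, eIF2gamma, eIF2A, eIF3f1, eIF3m, eIF4A, eIF4G2, eEF1alpha2, TyrRS, GlyRS, MetRS, AspRS, ArgRS-m, PheRS-m and AspRS-m. By role, a candidate in at least 1 list was found for 27 of 39 initiation factors (69.2%) and 2 of 4 elongation factors (50%). It was found for 10 of 12 cytosolic synthetases (83.3%) and 5 of 13 mitochondrial synthetases (38.5%), where all genes gave 48.4%. No ranked list held a candidate at an own start for 24 of the 68 members, against 6328 of the 12269 genes. Of the 60 members with no core region in the territory, 23 had none there. These were eIF2Bepsilon, eIF3d2, eIF3f2, eIF3g2, eIF3i, eIF3l, eIF4B, eIF4E3, eIF4E4, eIF4E5, eIF4E7, eIF4H2, eEF1delta, eEFSec, HisRS, LeuRS, AlaRS-m, AsnRS-m, GluRS-m, IleRS-m, MetRS-m, TyrRS-m and ValRS-m.

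Start sites of translation genes are known for a pyrimidine-rich initiator, here taken as CTTTC or CTTTT on the coding strand starting within 5 bp of an own start. It was found at 10 of the 85 members (11.8%, exact interval 5.79 to 20.6), against 5.13% of all genes and 57 of 92 cytosolic ribosomal protein genes (62.0%). Members with a core region at the own start had it in 4 of 17 (eEF2, eEF5, SerRS and ThrRS), and members without in 6 of 68 (eIF3f1, eIF3i, eIF3m, eIF4A, LysRS and TyrRS). These are 23.5% (interval 6.81 to 49.9) and 8.82% (interval 3.31 to 18.2), and over all genes the same split gave 7.59% and 4.78%. The members with a region had a median of 2 annotated start sites and those without 1, so the former offered more places for a match. None of the 15 mitochondrial synthetases had it. The 25 bp around the start are shown for the 3 of the 4 on 2L, on the coding strand with the initiator in capitals.
eEF2, chr2L:21682107-21682131, minus strand: gtcgctgcagcgcctcgctCTTTCc
SerRS, chr2L:3037254-3037278, minus strand: cacttaccaccatcgCTTTCcagca
ThrRS, chr2L:12103736-12103760, plus strand: cctggtaacactgtgcccCTTTTtg
The eEF2 and SerRS starts carry CTTTC and the ThrRS start CTTTT, at offsets of 4, 0 and 3 bp from the annotated start in eEF2, SerRS and ThrRS. SerRS has 2 annotated starts. The initiator is at the one at 3037263, and the region summit lay on the other, at 3037403.

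The wider pathway was looked at in 25 matched genes of 27 listed. These are release factors, synthetase partners, regulators such as those of eIF2 and eIF4E, mitochondrial factors, and the synthetase genes alpha-PheRS and beta-PheRS. The naming rule leaves out these 2 synthetase genes. A summit lay in the territory of beta-PheRS in 1 list and of alpha-PheRS in 0. A core region lay in 4 of them (16.0%, interval 4.54 to 36.1), and the 23.1% of all genes lies inside that interval. The release factor genes eRF1 (76.11, 69.97 and 48.86) and eRF3 (74.09, 82.39 and 64.95) had theirs at an own start, at -125 and -116 bp. crc, the fly ATF4, was in 2 lists at -496 bp, nearer to Mondo. pAbp, the poly(A)-binding protein gene, stood at 82.20, 90.71 and 88.01, 506 bp downstream of an own start. The eIF4E-binding protein gene Thor, the eIF2 kinase genes Gcn2 and PEK, and both mEFTu genes were in no list. By arm, members had a core region in 5 of 11 on 2L, 7 of 21 on 2R, 5 of 21 on 3L, 6 of 21 on 3R, 2 of 10 on X and 0 of 1 on 4. The shares of all genes on those arms were 22.2%, 21.6%, 24.7%, 24.0%, 23.4% and 3.75%.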

How the data were processed

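Chromatin immunoprecipitation of tgo-eGFP was measured in 3 biological replicates of 1 group. Peaks were called per replicate by the authors, and the list names refer to IDR, the irreproducible discovery rate, per the deposited readme and file names. For the aligner, the peak caller and the read depth, names and values were not given in the sources used here. Precision is given as the SD over the 3 replicate lists and as exact binomial intervals on gene counts, which cover counting error only. The deposited signal value was used only as a rank within a list. The deposited score, from 830 to 1000 in the thresholded lists, marked candidates past the authors' threshold. The −log10 IDR that the authors deposited in the ranked lists was not printed.

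Summits at most 150 bp apart were chained into 1 region. Gene models were Ensembl release 115 for BDGP release 6, whose arms match dm6. Every member was named with its number of lists, and the 12 with the highest mean percentile in all 3 lists were given per replicate. Peaks off the major chromosome arms were left out. No set test was made, and the comparisons are descriptions. The members and lists were chosen with earlier results of these data known. Counting functions were tested on simulated data. Python 3.11.15, pandas 2.3.3, numpy 2.4.6, scipy 1.17.1 and matplotlib 3.10.9 were used. Alternatives covered the joining rule, the lists required, signal, territory, replicates and window size.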

Additional observations from a re-analysis of the deposited data

How the results depend on the processing

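Of 98 alternative values 67 stayed within the spread or 1.5 times of the value given, 31 moved and 0 reversed. Most are counts, shares or percentiles, which have no sign to reverse, and the comparison of members with all genes was not among them. The cause was not tested beyond what each setting itself changes. The territory moved counts most. The gene body alone gave 8 members, 3 initiation factors, 1 cytosolic and 1 mitochondrial synthetase, and 10 kb on either side gave 55, 26, 15 and 10, with 54.9% of all genes. Above the median signal, 2 mitochondrial synthetases remained and the mean share of members was 20.8%. The members' median percentile was 78.1 with all 3 lists required, 70.9 with joining at 50 bp, and 75.6 to 78.3 leaving out 1 replicate. The median distance was -124 to -116 bp leaving out 1 replicate. GC at the summit was 34.8% in 200 bp windows, and 46.1% in flanks 1000 bp away. With 200 bp windows ACGTG was in 10%, GCGTG in 23.3%, CANNTG in 50%, TATCGA in 30%, TATCGATA in 10%, GATAA in 46.7%, CACTG in 36.7%, GGTCACAC in 6.67% and TATAA in 60% of member regions. With all 3 lists required ACGTG and GGTCACAC were in 0%, GATAA and CACTG in 18.2%. Members stayed above all genes under every setting of the core region except the gene body alone. These settings reuse the same 85 genes and the same 3 replicates, so they are not separate evidence of a difference. In the main setting the 23.1% of all genes lies inside the members' interval of 20.02 to 40.3. No paired analysis was possible because there is 1 group.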
